A study of Mus musculus with 12 samples.

Results

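Mouse embryonic stem cells lacking both DHX36 and FANCJ were compared with wild-type (WT) cells, using the 3 double knockout and the 3 WT libraries among the 12 libraries of the series. The members are all genes of the deposited count table once spike-in rows were dropped, and 12765 of 32285 genes had enough counts to be tested. The cells were of IB10, an embryonic stem cell line from 129/Ola mice, kept untreated on gelatin in serum with leukaemia inhibitory factor and medium conditioned by rat liver cells. FANCJ is the protein of the mouse gene Brip1. Single knockouts of DHX36 and of FANCJ, with 3 libraries each, served to show where the double knockout differed from either. The labels do not say how the genes were disrupted, whether a genotype was 1 clone or several, or whether libraries came from separate cultures. The p-values therefore reflect only how these libraries vary, part of which may be technical, and clone and genotype cannot be told apart.

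G-quadruplexes are stacked structures that guanine-rich DNA or RNA can fold into. DHX36 is a helicase that unwinds them in RNA and DNA and takes part in the handling of messenger RNA, whereas FANCJ is a DNA helicase of the Fanconi anaemia pathway that helps replication past crosslinks and G-quadruplexes. Embryonic stem cells renew themselves through a network of pluripotency factors and, in serum, hold a mixture of more naive and more advanced states.

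RNA was sequenced by a method like CEL-Seq2, which reads transcripts near their 3′ ends. Levels below are CPM, that is, counts scaled to a common library total, and they compare libraries for a gene, not genes with each other. WT libraries held 4284785 to 5792862 counts and double knockout libraries 10915924 to 14721931, so each double knockout library was deeper than each WT library and its low genes carried less counting error. Mitochondrial transcripts took 10.25% ± 0.304 of counts in WT and 12.74% ± 0.7 in the double knockout (SD, n = 3), without overlap (exact permutation test, two-sided, p = 0.1, the smallest that 3 against 3 libraries allow). The part of depth or mitochondrial share in the results was not tested beyond the counts at equal depth given below. Of 8 embryonic stem cell markers, all were present, with summed levels of 4686 to 4846 CPM in WT and 5850 to 6095 CPM in the double knockout. In bulk samples, fewer cells of a type and less RNA per cell cannot be told apart.

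The targeted genes were both lower. Brip1 (ENSMUSG00000034329, GRCm38 chromosome 11, 86058138 to 86201193, reverse strand) stood at 6.86, 6.72 and 7.03 CPM in WT and at 0.744, 0.319 and 0.178 CPM in the double knockout. Its means were 6.87 ± 0.154 and 0.414 ± 0.295 CPM (SD, n = 3), a log2 fold change of -3.93 (standard error, SE, 0.36, adjusted p = 2.77e-08). Dhx36 (ENSMUSG00000027770, chromosome 3, 62468013 to 62507004, reverse strand) gave 54.7, 57.6 and 50.1 CPM in WT and 12.2, 15.1 and 14.5 CPM in the double knockout, with means of 54.1 ± 3.79 and 13.9 ± 1.54 CPM. Its log2 fold change was -1.97 (SE 0.12, adjusted p = 5.72e-11). Neither gene's libraries overlapped between the genotypes, and Dhx36 transcript remained 3.91-fold below the WT level. Transcript counted outside a disrupted part does not show whether protein is made.

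The double knockout differed from WT in 4331 of the 12765 genes tested, 33.9% (edgeR quasi-likelihood test, Benjamini-Hochberg adjusted p under 0.05). Of these, 2119 rose (16.6% of genes tested) and 2212 fell (17.3%), and the median log2 fold change of all genes tested was 0.01. A change of at least 2-fold was called for 1324 genes (10.4%), 704 higher and 620 lower. Libraries of the genotypes did not overlap for 5773 genes (45.2%), 4110 of them among the called genes. At equal depth, with every library thinned to 4284785 counts, 3617 genes were called. Among the 500 genes of at least 20 CPM that varied most over all 12 libraries, the first principal component took 71.4% of the variance. On it, WT libraries lay between -10.2 and -9.76 and double knockout libraries between 14.7 and 15. DHX36 knockout libraries lay between 6.97 and 7.04 and FANCJ knockout libraries between -12.7 and -11.3. The 71.4% is therefore not variance between the double knockout and WT alone. The lists described below were compared with these background shares: a list with 16.6% of its members raised and 17.3% lowered is like the genes as a whole.

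**Figure D1:**
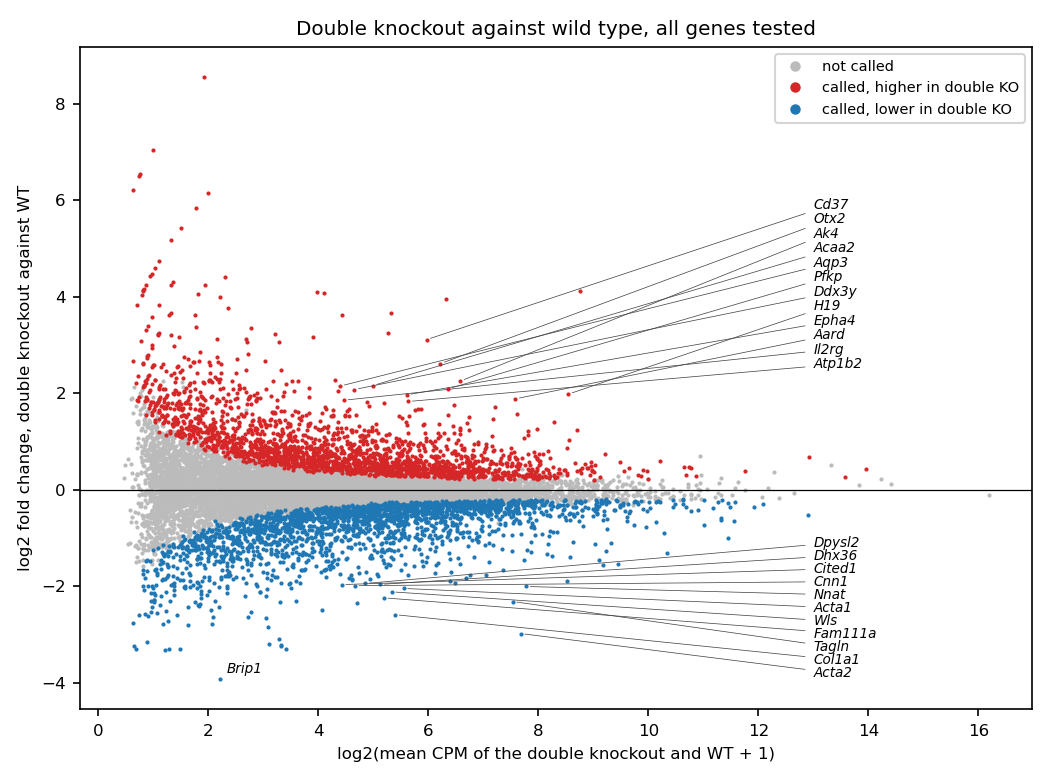
Each point is a gene tested, with log2 of its mean CPM in the double knockout and WT plus 1 on the horizontal axis and its log2 fold change on the vertical axis; red points rose, blue points fell and grey points were not called. Genes among the 12 largest rises and 12 largest falls at 20 CPM or more are named, from Cd37 (3.11) to Acta2 (-2.98), and Brip1 lies at -3.93.

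Of the 37 gene lists described, the lowest median was in genes of the contractile actin cytoskeleton. All 20 tested members of a list of actin genes and targets of the transcription factor SRF fell. Their median log2 fold change was -1.36, against 17.3% lowered and a median of 0.01 among all genes. In the DHX36 knockout against WT, 17 of them fell and 1 rose (median -0.74), where 24.4% of all genes changed. Acta2, which encodes smooth muscle actin, was read at 388, 314 and 385 CPM in WT and 49.2, 40.3 and 47.8 CPM in the double knockout. Every WT library was several-fold above every double knockout library, and the log2 fold change was -2.98 (SE 0.10, adjusted p = 1.61e-14), or 7.91-fold lower. Tagln, the actin-binding protein transgelin, went from 299, 269 and 356 CPM to 67.3, 58.6 and 58.7 CPM (log2 fold change -2.32, SE 0.10, adjusted p = 8.46e-13). Acta1, skeletal muscle actin, went from 75.5, 82 and 64.4 CPM to 17.4, 17.9 and 18.5 CPM (-2.05, SE 0.11). Both genes had double knockout libraries within a narrow range far below WT. Cnn1, the smooth muscle calponin, went from 39, 40.7 and 37.2 CPM to 7.24, 12.4 and 9.97 CPM (-1.99, SE 0.18), and Myl9, a myosin regulatory light chain, from 15.3, 16.8 and 16.4 CPM to 1.15, 1.44 and 2.76 CPM (-3.21, SE 0.24). The smallest fall in the list was that of Srf itself (-0.49, SE 0.14, adjusted p = 0.0103), singled out after its value was seen. The count of lowered members was 19 or 20 under every alternative other than the restriction to genes of at least 20 CPM, which drops members.

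SRF is known to bind the CArG box, written CC, 6 letters of A or T, then GG. In RefSeq promoter windows of GRCm38.p6, from 250 bases before to 50 bases after a start, 7 of 19 windows, from 18 of these genes, held the box on either strand (36.8%), against 1.26% of windows of tested genes and 1.63% of all 32851 windows. The list was drawn up as SRF targets, so its share is not independent of SRF. Among tested genes as a whole, 64 of 2323 windows of lowered genes held it (2.76%), 16 of 2133 windows of raised genes (0.75%) and 0.969% of windows of genes not called. The 64 windows include the 7 of the list, so this share is not independent of it. These shares are a description, without a test, and a match is not shown to be a bound site. The windows with a box are shown 5′ to 3′ on the gene's strand, with the box in capitals, because every one of these genes fell.
Acta1, chr8:123894819-123894868, reverse strand: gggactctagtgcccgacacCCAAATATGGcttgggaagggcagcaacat
Actg1, chr11:120348556-120348605, reverse strand: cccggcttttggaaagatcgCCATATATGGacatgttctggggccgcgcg
Cnn2, chr10:79988524-79988573, forward strand: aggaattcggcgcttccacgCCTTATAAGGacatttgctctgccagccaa
Myl6, chr10:128493030-128493079, reverse strand: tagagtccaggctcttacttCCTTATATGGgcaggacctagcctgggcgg
Myl9, chr2:156775283-156775332, forward strand: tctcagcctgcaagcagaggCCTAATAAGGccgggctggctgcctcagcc
Srf, chr17:46556195-46556264, reverse strand: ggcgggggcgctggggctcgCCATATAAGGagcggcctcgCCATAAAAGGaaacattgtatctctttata
Vcl, chr14:20929151-20929200, forward strand: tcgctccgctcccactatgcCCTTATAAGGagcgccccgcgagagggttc
Srf has the box at 2 places in its own window. Acta2 and Cnn1, among the genes that fell most, had no exact match in the window, which says only that these letters are not in it.

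**Figure D2:**
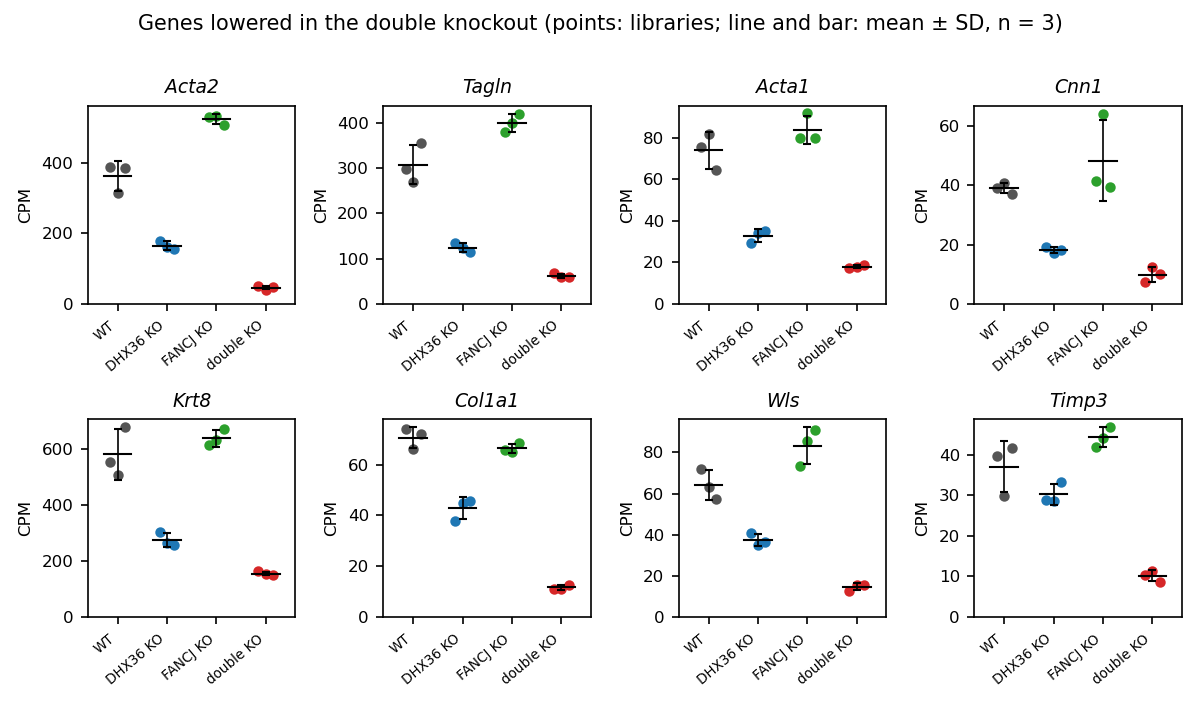
CPM of 8 lowered genes in each library of WT, the DHX36 knockout, the FANCJ knockout and the double knockout, with horizontal lines and bars for the mean ± SD (n = 3). The double knockout libraries are the lowest in every panel, at 40.3 to 49.2 CPM for Acta2 against 314 to 388 CPM in WT.

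Genes of simple epithelia fell as well. Of 18 tested keratin and junction genes, 14 fell and none rose, with a median of -0.78. In the DHX36 knockout against WT, 11 fell and 1 rose (median -0.53), where 24.4% of all genes changed. Krt8, a keratin of simple epithelium, was at 555, 505 and 679 CPM in WT and 163, 155 and 149 CPM in the double knockout (-1.90, SE 0.10, adjusted p = 1.08e-11). Its partner Krt18 was at 203, 221 and 184 CPM and 56.5, 53 and 69.8 CPM (-1.77, SE 0.11). Neither overlapped between the genotypes. Krt7 fell by 1.79 and Ocln, the tight junction protein occludin, by 1.67 on the log2 scale.

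Fibroblast and matrix genes gave 6 falls and 1 rise among 11 tested (median -0.57), of which Acta2 and Tagln were also in the contractile list. Col1a1, a chain of type I collagen, stood at 74, 66.1 and 71.9 CPM in WT and at 11.2, 11.2 and 12.7 CPM in the double knockout, with tight and well separated libraries. Its log2 fold change was -2.59 (SE 0.11, adjusted p = 6.19e-13), and Col3a1 gave -1.80 (SE 0.30). Timp3, an inhibitor of matrix metalloproteinases, went from 39.6, 29.9 and 41.7 CPM to 10.5, 11.4 and 8.73 CPM (-1.85, SE 0.14, adjusted p = 1.65e-09). The 8 markers of fibroblasts or feeder cells summed to 86.0 to 88.4 CPM in WT and 19.2 to 22.8 CPM in the double knockout, mostly from Col1a1. Dcn, Lum, Postn and Prrx1, defining fibroblast markers, had at most 3 counts over the WT libraries. The part of such cells in these falls was not tested.

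Wls, the carrier that brings Wnt proteins to the cell surface, was at 71.7, 63.1 and 57.1 CPM in WT and 12.9, 15.6 and 15.8 CPM in the double knockout (-2.12, SE 0.12, adjusted p = 2.55e-11), without overlap. Of 13 Wnt targets tested, 8 fell and 2 rose, with a median of -0.59. Sp5, a transcription factor induced by Wnt, was at 14.6, 12.7 and 11.9 CPM and 1.83, 1.75 and 1.87 CPM (-2.84, SE 0.22). Ccnd1, cyclin D1, was at 328, 312 and 314 CPM and 147, 152 and 149.9 CPM (-1.09, SE 0.11). Both had all double knockout libraries well below WT, and Nkd1, a feedback inhibitor, fell by 1.44 on the log2 scale. The ligand gene Wnt3 fell too (-2.31, SE 0.29, adjusted p = 2.22e-06).

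Immediate early genes and feedback regulators of ERK signalling gave 13 falls and 1 rise among 20 tested (median -0.48). The largest falls were in Ier3 (-1.58, SE 0.15), Fosl1 (-1.26, SE 0.15), Junb (-0.99, SE 0.10) and Spred1 (-0.99, SE 0.09). Fosl1 and Junb are subunits of the AP-1 transcription factor, and Spred1 restrains the ERK pathway. Irs1, the adaptor that carries insulin signals inward from the receptor, stood at 46.9, 26.9 and 31.6 CPM in WT and 10.3, 9.01 and 10.1 CPM in the double knockout. The double knockout libraries were close together, the WT libraries less so, and the log2 fold change was -1.83 (SE 0.18, adjusted p = 6.31e-08).

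Nodal and BMP signalling genes went the other way more often, with 8 rises and 3 falls among 23 (median 0.22). Lefty1 and Lefty2, targets and inhibitors of Nodal, rose by 1.11 (SE 0.24) and 1.13 (SE 0.13) on the log2 scale. Inhba, a subunit of activin, fell by 2.37 and Id2, a BMP target, by 1.08 on that scale.

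**Figure D3:**
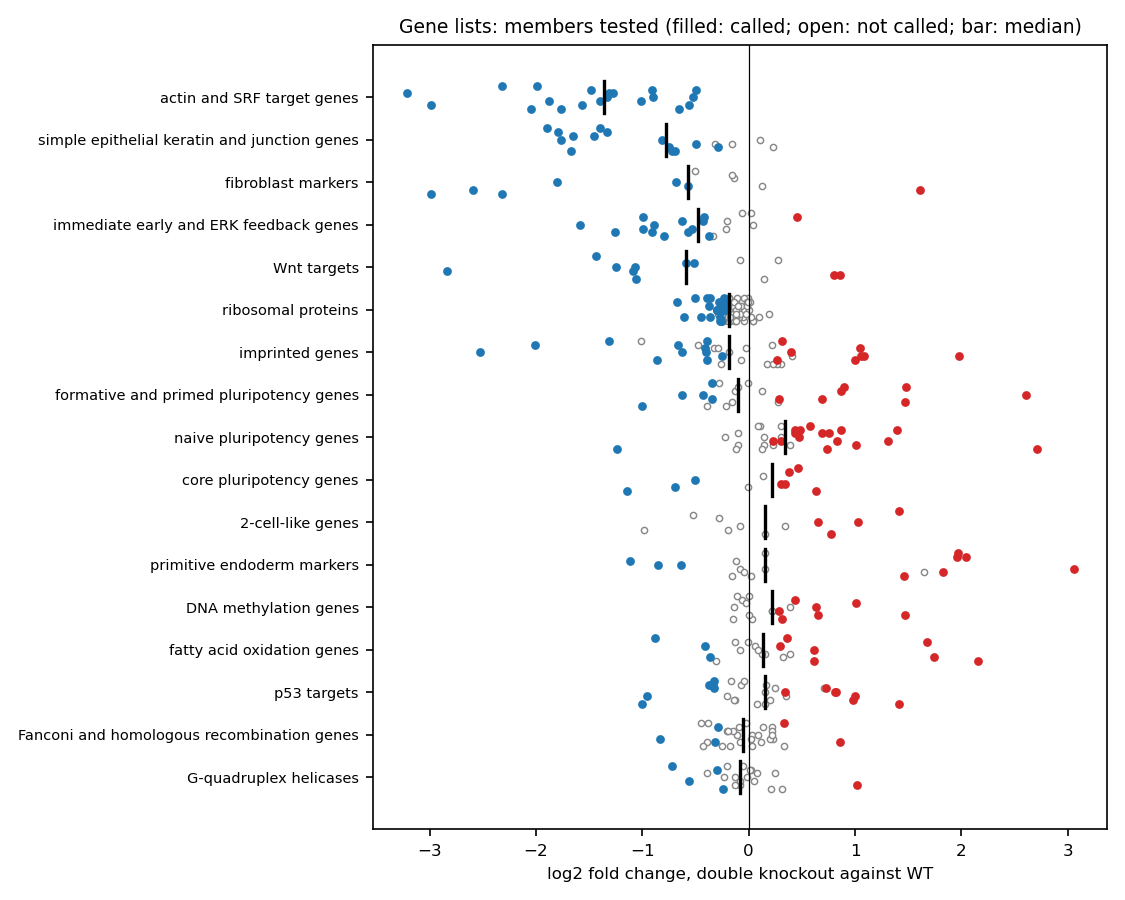
Log2 fold change in the double knockout against WT for each tested member of 17 gene lists, 1 row per list, with filled red points for rises, filled blue points for falls, open points for genes not called and a black bar at the median. The actin and SRF target genes lie wholly below 0 with a median of -1.36, and the naive pluripotency genes have a median of 0.35.

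Pluripotency genes were retained and many were higher. Of 30 naive pluripotency genes tested, 16 rose and 1 fell, with a median of 0.35, against 16.6% raised among all genes. Fbxo15, a target of the pluripotency factors, was at 157, 177 and 178 CPM in WT and 442, 469 and 436 CPM in the double knockout (1.40, SE 0.09, adjusted p = 1.34e-10). Tbx3, a transcription factor of the naive state, was at 44.7, 50.2 and 54.3 CPM and 125, 119 and 126 CPM (1.31, SE 0.09), and Dppa3, a protector of maternal DNA methylation, at 19.5, 18 and 24.1 CPM and 43.2, 43.1 and 36.5 CPM (1.01, SE 0.13). None of these overlapped between the genotypes. Spic, a low-expressed transcription factor gene, rose by 2.71 (SE 0.50) on the log2 scale.

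Core pluripotency genes gave 5 rises and 3 falls of 10, and 3 rises without WT replicate 1 (median 0.22). Dnmt3l rose by 0.63 (SE 0.08), while Tdh, a threonine dehydrogenase typical of mouse stem cells, fell by 1.15, Epcam by 0.69 and Lin28a, a blocker of let-7 processing, by 0.50 on the log2 scale. Pou5f1 was not called, at 105, 91.6 and 102 CPM in WT and 114, 95.9 and 119 CPM in the double knockout.

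Formative and primed genes were split, with 7 rises and 5 falls of 21. Their median was -0.10, and 0.01 without WT replicate 1 or 2. Otx2, a transcription factor that marks the exit from the naive state, was among the 12 largest rises in genes of at least 20 CPM, with predicted genes passed over, at 27.5, 20.7 and 13.8 CPM in WT and 116, 128 and 136 CPM in the double knockout. The lowest of the double knockout libraries was far above the highest WT library, and the log2 fold change was 2.61 (SE 0.15, adjusted p = 2.39e-11). Zic2, a zinc finger factor, rose by 1.48 (SE 0.21), whereas Sox11 fell by 1.00 (SE 0.11) on the log2 scale. Dnmt3a, a de novo DNA methyltransferase, went from 71.7, 75.3 and 80.8 CPM to 208, 219 and 205 CPM (1.47, SE 0.09, adjusted p = 2.61e-11). It belonged also to a list of 18 DNA methylation genes, of which 7 rose and none fell (median 0.22). Mbd4, a thymine DNA glycosylase, rose there by 0.65 (SE 0.15).

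Imprinted genes, which are expressed from 1 parental copy, changed in both directions, with 8 rises and 11 falls of 33 (median -0.18). H19, a long noncoding RNA, was at 151, 157 and 145 CPM in WT and 574, 602 and 607 CPM in the double knockout, all far above WT (1.98, SE 0.09, adjusted p = 7.84e-13). Its level was 38.6, 36.5 and 32.2 CPM with DHX36 alone lost, below WT, and 696, 622 and 599 CPM with FANCJ alone lost, above WT. The double knockout differed from the DHX36 knockout (4.06, SE 0.10, adjusted p = 6.15e-18), and its difference from the FANCJ knockout was -0.10 (SE 0.08, adjusted p = 0.338). Nnat, a small membrane protein of neurons, went from 316, 340.5 and 397 CPM to 74.8, 79.8 and 107 CPM (-2.01, SE 0.13), and Peg10, derived from a retrotransposon, from 1591, 1619.9 and 2353 CPM to 682, 749 and 802 CPM (-1.32, SE 0.16). Meg3, a noncoding RNA of the Dlk1-Dio3 region, was at 205, 179 and 187 CPM and 111, 103 and 100.0 CPM (-0.86, SE 0.11). All 3 genes had their double knockout libraries below every WT library. Zim1 fell by 2.53 (SE 0.51) on the log2 scale, from a low mean of 2.29 CPM in WT.

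Markers of other lineages moved both ways, mostly at low levels. Primitive endoderm markers gave 6 rises and 3 falls of 17, with a median of 0.15, and -0.02 at equal depth. Of the 7 members of at least 20 CPM, 0 rose and 3 fell. The tested members summed to 804.5 to 900.9 CPM in WT and 732.7 to 825.3 CPM in the double knockout. The called members named next, by size, were all rises at low levels. Sox17, a transcription factor of endoderm, was at 4.65, 1.24 and 1.87 CPM in WT and 12.4, 7.82 and 9.08 CPM in the double knockout (1.96, SE 0.35), and Srgn, a proteoglycan core protein, at 1.99, 1.06 and 2.81 CPM and 18.5, 15.2 and 13.4 CPM (3.06, SE 0.25). Both were above WT in every double knockout library. Pdgfra and Cubn, a growth factor receptor and the endocytic receptor cubilin, rose by 2.05 and 1.96. The call of Pdgfra was lost without WT replicate 2 (1.52, adjusted p = 0.0558) and that of Cubn without WT replicate 1 (1.43, adjusted p = 0.0813). The 7 defining markers of primitive endoderm summed to 33.4 to 36.3 CPM in WT and 47.1 to 54.5 CPM in the double knockout. Sox17 and Srgn were higher than WT in the single knockouts too. Their means were 10.8 and 8.01 CPM in the DHX36 knockout, and 13.2 and 20.2 CPM in the FANCJ knockout. In the FANCJ knockout against WT, 9 of the 17 rose and none fell (median 0.83), where 2.07% of all genes changed. In the DHX36 knockout, 4 rose and 4 fell (median -0.12). Compared directly with the FANCJ knockout, the double knockout was lower in 7 and higher in 2 (median -0.45).

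Trophoblast markers gave 7 rises and 4 falls of 15 (median 0.41). Of the 7 members of at least 20 CPM, 4 rose and 2 fell, and the highest log2 fold change in the list was 1.22. Named by size were falls, in Cdx2 (-2.24, SE 0.34), Krt7, Peg10 and Tfap2a (-1.27, SE 0.33), the first and last being transcription factors of that lineage. Mesendoderm markers gave 3 rises and 3 falls of 10, with Lefty1 and Lefty2 among the rises and, among the falls, Wnt3 and T, the brachyury factor (-1.25, SE 0.20). The list's median was -0.11, with no settled sign: it was 0.21 at equal depth, 0.40 with only the compared genotypes fitted and 0.36 without WT replicate 1. Neuroectoderm markers gave 6 falls and 1 rise of 9 (median -0.84). Sox1, a neural transcription factor, fell by 1.31, the intermediate filament gene Nes by 1.02 and the neuronal microtubule protein gene Map2 by 0.92 on the log2 scale. Sox21 rose by 0.89, a call lost without WT replicate 2 (0.69, adjusted p = 0.133) and without double knockout replicate 1 (0.79, adjusted p = 0.08). Of 3 blood and endothelial markers tested, Gata1, an erythroid transcription factor, rose by 1.92 (SE 0.34) and Pecam1, an adhesion molecule also made by stem cells, by 1.18 (SE 0.12), with a median of 1.18. Elf5, Neurog2, Gsc, Mesp1, Cdh5 and Hbb-y, each a defining marker of 1 of these lineages, had no count in WT.

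Genes of the 2-cell-like state, seen in a few cells of a culture, gave 4 rises and no fall of 11. Their median was 0.16, and -0.11 without double knockout replicate 2. Zscan4d, a zinc finger gene of that state, was at 26.3, 16.4 and 25.8 CPM in WT and 48.5, 45.9 and 43.6 CPM in the double knockout (1.03, SE 0.14), with no overlap. Usp17la (1.41), Usp17lc (0.77) and Gm5662 (0.65) also rose. These genes belong to families of near-identical copies among which reads could be split, so single copies are uncertain. Germline genes gave 4 rises and 3 falls of 19 (median 0.29), including Taf7l (2.65, SE 0.44) and Stra8 (1.51, SE 0.29), a gene of meiotic entry, and a fall of Tex11 (-1.29, SE 0.25).

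Energy metabolism changed in single genes more than in lists. Fatty acid oxidation genes gave 7 rises and 3 falls of 20 (median 0.14), and 1 fall without WT replicate 3 or double knockout replicate 1. Acaa2, the last enzyme of mitochondrial beta-oxidation, went from 9.30, 11.3 and 13.3 CPM to 53.3, 46.7 and 51 CPM (2.15, SE 0.17, adjusted p = 3.30e-09). Cpt1a, which loads fatty acids onto carnitine, went from 13.7, 10.3 and 17.1 CPM to 39.8, 48.3 and 47.3 CPM (1.74, SE 0.17), and Slc25a20, the carrier that brings acylcarnitine into mitochondria, from 27.5, 26.7 and 27.6 CPM to 98.7, 82.8 and 79.7 CPM (1.68, SE 0.14). All 3 were without overlap, while Acsl3, which activates fatty acids, fell by 0.88 on the log2 scale.

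Glycolysis and hypoxia genes gave 4 rises and 6 falls of 29, with a median of -0.01 and between -0.03 and 0.04 under the alternatives other than the 20 CPM restriction. Pfkp, the platelet form of phosphofructokinase, went from 29.4, 31.8 and 31.6 CPM to 151, 119 and 125 CPM (2.09, SE 0.11, adjusted p = 9.49e-12). Slc2a3, a glucose transporter, went the other way, from 1040.4, 1030.5 and 1041 CPM to 346, 353 and 365 CPM (-1.55, SE 0.08, adjusted p = 4.06e-12). Both differences were many times the spread between libraries. Ndrg1 rose by 1.37 and Aldoc, an aldolase, fell by 1.38 on the log2 scale. Ak4, a mitochondrial adenylate kinase, was at 27.5, 34.8 and 36.8 CPM in WT and 160.1, 164 and 148 CPM in the double knockout (2.25, SE 0.10, adjusted p = 1.03e-12).

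Glutathione and transsulfuration genes gave 3 rises and 8 falls of 22 (median -0.19). Gsto1, a glutathione transferase, was at 142, 135 and 145 CPM in WT and 35.8, 35.8 and 37.8 CPM in the double knockout (-1.95, SE 0.10, adjusted p = 1.20e-11), with no overlap. The transferases Gstm5, Mgst3 and Gstm2 fell by 1.48, 1.35 and 1.01 on the log2 scale. Serine, glycine and threonine metabolism gave 6 falls and no rise of 15 (median -0.12). Phgdh, the first enzyme of serine synthesis, fell by 1.24, Gcsh, a protein of the glycine cleavage system, by 0.91, and Gcat, which acts after Tdh in threonine breakdown, by 0.90 on the log2 scale.

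Changed members made up 41.7% of ATF4 targets, 30% of endoplasmic reticulum chaperones and 21.7% of cholesterol genes, against 33.9% of all genes. ATF4 targets gave 7 rises and 3 falls of 24 (median 0.15), with Ddit4, an inhibitor of mTORC1, up by 1.24 (SE 0.14), Sesn2 up by 0.98 (SE 0.11) and Nupr1 by 1.70. The call of Nupr1 was lost without WT replicate 2 (1.26, adjusted p = 0.0957). Endoplasmic reticulum chaperones gave 4 rises and 2 falls of 20 (median -0.05), and the rises were 2 at equal depth, without WT replicate 2 and without double knockout replicate 1. The chaperone Hspa5 rose by 0.41 and Xbp1, a transcription factor of the unfolded protein response, by 0.51. The calls of Herpud1 (0.50) and Sel1l (0.40), parts of the degradation machinery, were lost without WT replicate 2 (adjusted p = 0.205 and 0.107). Herpud1 was also lost without double knockout replicate 1 or 3 (adjusted p = 0.0783 and 0.0822), at equal depth (0.0538) and in DESeq2 (0.0504). Sel1l was also lost without WT replicate 3 or double knockout replicate 1 (adjusted p = 0.0564 and 0.0769) and at equal depth (0.0750). Cholesterol genes gave 5 falls and no rise of 23 (median -0.24), and 3 falls without WT replicate 3. Msmo1, a sterol oxidase, fell by 0.58 on the log2 scale. Dhcr7 (-0.64), an enzyme of the pathway, was not called without WT replicate 3 (adjusted p = 0.0616) or without double knockout replicate 2 (adjusted p = 0.0541).

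In the lists nearest to the known roles of the helicases, the share of members changed was 23.8% (G-quadruplex helicases), 29.2% (R-loop factors) and 16.7% (Fanconi and homologous recombination genes), against 33.9% of all genes. Of 21 other G-quadruplex helicases and binding proteins, 1 rose and 4 fell (median -0.08), and 2 fell without WT replicate 2 or WT replicate 3. Dhx9, an RNA helicase that also acts on R-loops and G-quadruplexes, was at 268, 262 and 219 CPM in WT and 563, 577 and 379.8 CPM in the double knockout (1.02, SE 0.13, adjusted p = 4.15e-06). Its double knockout replicate 3 lay nearer to WT than the others, without overlap. The DHX36 knockout had a mean of 489 CPM for Dhx9. Dna2 fell by 0.56 and Ddx21 by 0.30 on the log2 scale. Wrn, the Werner syndrome helicase, gave -0.72 (SE 0.22), a call lost at equal depth (adjusted p = 0.094), without WT replicate 2 (0.0544) and without WT replicate 3 (0.066).

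R-loop factors gave 2 rises and 5 falls of 24, and 3 falls without double knockout replicate 2 (median -0.09). Ddx19b rose by 1.36 (SE 0.14), Thoc5 of the THO complex fell by 0.69, and Tdrd3 gave -0.79, not called without WT replicate 1 (adjusted p = 0.0738).

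Fanconi and homologous recombination genes other than Brip1 gave 2 rises and 3 falls of 30 (median -0.05). The falls numbered 1 without WT replicate 1 or 2 or double knockout replicate 1, and 0 without double knockout replicate 2. Rbbp8, which starts DNA end resection, rose by 0.86 (SE 0.15, adjusted p = 0.000136). Fancf (-0.83), Brca1 (-0.31) and Fancm (0.34) did not keep their calls. Fancf was lost without WT replicate 2 (adjusted p = 0.101) and without double knockout replicate 1 or 2 (0.0521 and 0.0549). Brca1 was lost without WT replicate 1 or 3 (0.0533 and 0.0515) and without double knockout replicate 1 or 2 (0.0743 and 0.0506), and Fancm in DESeq2 (0.0619), with no expression filter (0.0527), without WT replicate 1 or 2 (0.0699 and 0.23) and without double knockout replicate 1 or 2 (0.117 and 0.0922). Mismatch and lesion response genes gave 6 rises and 4 falls of 23 (median 0.14). Fam111a, a protease that acts at replication forks, was at 62.4, 55.7 and 58.3 CPM in WT and 12.3, 13.3 and 11.5 CPM in the double knockout (-2.24, SE 0.13, adjusted p = 2.57e-11), without overlap. The checkpoint kinases Atr and Atm rose by 0.99 (SE 0.18) and 0.92 (SE 0.22), and Hmces, which shields abasic sites, fell by 0.81 on the log2 scale.

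p53 targets gave 7 rises and 6 falls of 27. Their median was 0.16, and -0.09 with only genes of at least 20 CPM fitted. Of the 19 members of at least 20 CPM, 5 rose and 6 fell. By size, Sesn1 (1.41, SE 0.23, at a mean of 3.58 CPM in WT), Ei24 (1.00, SE 0.11) and Sesn2 rose. Perp fell (-1.0, SE 0.10). Cdkn1a and Mdm2, well-known targets looked up after their values were seen, fell by 0.37 and 0.32. DNA replication genes gave 2 rises and 7 falls of 33 (median -0.11). Pold2, Pola2 and Pold1, subunits of replicative polymerases, fell by 0.93, 0.58 and 0.52 on the log2 scale, and Mcm10 rose by 0.47. G2 and mitosis genes gave 6 rises and 1 fall of 22 (median 0.06), and 3 rises without WT replicate 3 or double knockout replicate 2. Cenpa, the centromeric histone, rose by 0.31. Kif11 (0.40) lost its call at equal depth (adjusted p = 0.0587), without WT replicate 2 or 3 (0.0718 and 0.123) and without double knockout replicate 1 or 2 (0.0853 and 0.0841). Plk1 (-0.31) lost it without WT replicate 1 (0.0785) and without double knockout replicate 1 or 2 (0.0698 and 0.076), and Cenpf (0.27) without WT replicate 3 (0.0554).

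Ribosomal protein genes shifted little but mostly one way. Of 79 tested, 28 fell and none rose (median -0.18). The falls numbered 18 without WT replicate 1, 10 without WT replicate 2, 16 without double knockout replicate 1 and 13 without double knockout replicate 2. Rpl13 fell by 0.67 and Rpl38 by 0.51 on the log2 scale, and Rps19 (-0.44) was not called without WT replicate 2 (adjusted p = 0.16) or double knockout replicate 2 (0.0743). Processed copies of these genes can take reads, so single members are uncertain. Mitochondrially encoded mRNAs gave 4 rises and no fall of 13 (median 0.26), beside the higher mitochondrial share given above, and 8 rises with no expression filter. They were mt-Nd2 (0.67), mt-Cytb (0.42), mt-Nd4 (0.26) and mt-Nd3 (0.39), the last of which was lost without double knockout replicate 1 (adjusted p = 0.0608).

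Histone genes gave 6 rises and no fall of 17 (median 0.35), with Hist1h2bc up by 1.52 (SE 0.25), Hist1h1c by 1.43 (SE 0.23) and H2afx by 0.67. The call of Hist1h4i (0.99) was lost without WT replicate 2 or 3 (adjusted p = 0.0955 and 0.105) and without double knockout replicate 2 (0.0505), and members of this family share sequence. Nuclear long noncoding RNAs gave 6 rises and 2 falls of 17 (median 0.15), and 3 rises without double knockout replicate 1. Xist, which silences the X chromosome, was at 25.9, 28.3 and 24.1 CPM in WT and 75, 73.5 and 58.5 CPM in the double knockout (1.40, SE 0.17), and its antisense partner Tsix rose by 0.94. How strand was treated in the counting is not given in the sources used here, and reads of that pair cannot be told apart. Malat1 gave 0.86 (SE 0.32, adjusted p = 0.0417), a call lost in DESeq2 (adjusted p = 0.182), among genes of at least 20 CPM (0.0592), without WT replicate 2 or 3 (0.0519 and 0.182) and without double knockout replicate 1 or 2 (0.106 and 0.125). Interferon and antigen presentation genes gave 2 rises and 4 falls of 14 (median -0.08). B2m, the light chain of class I molecules, fell by 1.44 (SE 0.12) on the log2 scale, from a mean of 58.8 CPM in WT. Psmb8 and Bst2 fell by 2.60 (SE 0.40) and 2.02 (SE 0.42), from low means of 2.92 and 3.15 CPM in WT. Oas1a gave 1.75, lost in DESeq2 (adjusted p = 0.0593) and without WT replicate 1 or 3 (0.148 and 0.0725).

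Among the largest rises in genes of at least 20 CPM, several belong to none of these lists. Cd37, a tetraspanin of blood cells, was at 16.8, 10.1 and 11.9 CPM in WT and 113, 111 and 107 CPM in the double knockout, the largest log2 fold change of the named rises at 3.11 (SE 0.17, adjusted p = 1.31e-11). Aqp3, a channel for water and glycerol, went from 7.53, 5.30 and 9.84 CPM to 31, 34.5 and 32.9 CPM (2.15, SE 0.17). Both were far above WT in all 3 libraries. Epha4, an ephrin receptor, went from 20.6, 20.2 and 17.8 CPM to 74.5, 77 and 77.4 CPM (1.96, SE 0.11), and Aard from 73.1, 89.8 and 81.5 CPM to 307, 352 and 242 CPM (1.88, SE 0.24). Ddx3y, a Y-linked RNA helicase, gave 9.96, 8.31 and 9.84 CPM and 39, 43.9 and 34.6 CPM (2.07, SE 0.15). It was higher than WT in the single knockouts too. The DHX36 knockout had a mean of 32.5 CPM (1.81, adjusted p = 2.94e-08) and the FANCJ knockout 24.3 CPM (1.39, adjusted p = 2.75e-05). Il2rg, the shared chain of several interleukin receptors, rose by 1.85 (SE 0.20), and Atp1b2, a subunit of the sodium pump, by 1.83 (SE 0.13). The rule for the largest rises required a lack of overlap. A further 5 predicted genes (Gm10800, Gm10801, Gm21738, 1700013H16Rik and Gm10717) ranked among these rises and were passed over by rule.

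Falls outside the lists included Cited1, a transcriptional coregulator, at 34.8, 30.2 and 33 CPM in WT and 6.97, 8.69 and 9.44 CPM in the double knockout (-1.97, SE 0.15). Dpysl2, a protein that binds tubulin in neurons, went from 44.1, 43.7 and 46.1 CPM to 15.9, 9.09 and 9.26 CPM (-1.95, SE 0.18, adjusted p = 4.45e-08). Its first double knockout library was higher than the others and still below every WT library.

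The single knockouts show which of these changes the double knockout did not share with them. Against the same WT libraries, the DHX36 knockout differed in 3113 genes (24.4%), 766 of them at least 2-fold (6%). The FANCJ knockout differed in 264 (2.07%), 65 of them at least 2-fold (0.509%). Because these comparisons share the WT libraries, the test of a difference is the direct comparison. The double knockout differed from the DHX36 knockout in 2512 genes (19.7%), 1057 higher (8.28%) and 1455 lower (11.4%), and from the FANCJ knockout in 4697 (36.8%). It was past WT and both single knockouts in the same direction in 1178 genes (9.23%), with 477 higher (3.74%) and 701 lower (5.49%). Of the 20 contractile genes, 16 were lower in the double knockout than in the DHX36 knockout and none was higher, against 11.4% and 8.28% of all genes. The test of whether the double knockout departs from the sum of the single knockout effects, the interaction, called 1122 genes (8.79%), 348 above the sum (2.73%) and 774 below it (6.06%).

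The rises past all 3 other genotypes were led by genes not called higher in either single knockout. Rhox5, an X-linked homeobox gene, stood at 43.2, 38.7 and 37.9 CPM in WT, 38.6, 30.6 and 31.2 CPM in the DHX36 knockout, 36.3, 41.5 and 49.9 CPM in the FANCJ knockout and 130.5, 129.5 and 146 CPM in the double knockout. Its log2 fold change was 1.76 (SE 0.12) against WT, 2.01 against the DHX36 knockout (adjusted p = 7.25e-11) and 1.68 against the FANCJ knockout (adjusted p = 1.65e-10). All 3 double knockout libraries were above the 9 others. Aass, the first enzyme of lysine breakdown, was at 22.8, 30.1 and 25.5 CPM in WT, 11.9, 20.8 and 15.4 CPM in the DHX36 knockout, 21, 13.8 and 22.5 CPM in the FANCJ knockout and 82.7, 95.2 and 73.5 CPM in the double knockout. Against WT it rose by 1.67 (SE 0.17), and the differences from the single knockouts were 2.41 and 2.15. Dusp27, of the dual specificity phosphatase family, was at 22.6, 27.2 and 26.9 CPM in WT, 26.7, 34.3 and 23.8 CPM in the DHX36 knockout, 25.9, 25.9 and 20.2 CPM in the FANCJ knockout and 79.3, 84.3 and 77.7 CPM in the double knockout (1.65 against WT, SE 0.13). Both genes again had every double knockout library above all others. Such separation was favoured by the rule that picked these rises, so it is not further evidence. Acaa2, Aard and Calcoco2, an autophagy receptor, completed the 6 named rises, and Calcoco2 went from 39, 36.8 and 45.9 CPM in WT to 102, 106 and 105 CPM in the double knockout (1.37, SE 0.12).

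**Figure D4:**
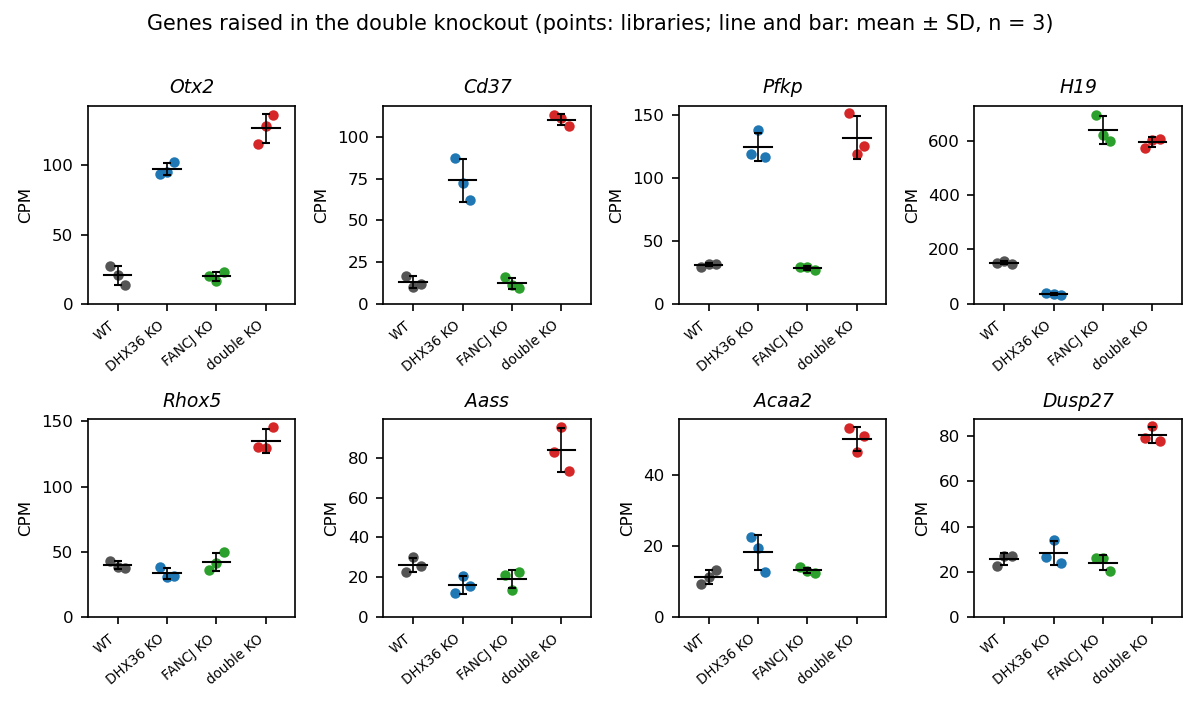
CPM of 8 raised genes in each library of the 4 genotypes, with lines and bars for the mean ± SD (n = 3). Otx2, Cd37 and Pfkp are high in the DHX36 knockout too, H19 is high in both genotypes without FANCJ, and Rhox5, Aass, Acaa2 and Dusp27 are highest in the double knockout, at 46.7 to 53.3 CPM for Acaa2.

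The falls named by the same rule were those of Col1a1, Acta2, Irs1, Dpysl2, Timp3 and Wls. Acta2 was at 179, 161 and 156 CPM in the DHX36 knockout, below WT, and at 529, 534 and 509 CPM in the FANCJ knockout, above WT. In the double knockout it was below the DHX36 knockout by a further log2 difference of -1.85 (SE 0.10, adjusted p = 5.07e-11). Irs1 was at 37.4, 27 and 30.3 CPM in the DHX36 knockout and 41.5, 53.2 and 46 CPM in the FANCJ knockout, and both overlapped the range of WT. Its difference from the DHX36 knockout was -1.69 (SE 0.17, adjusted p = 3.37e-07). Timp3, at 28.9, 28.6 and 33.2 CPM in the DHX36 knockout and 41.9, 44 and 46.8 CPM in the FANCJ knockout, differed from the former by -1.57 (SE 0.14). Col1a1 differed from it by -1.87, Dpysl2 by -1.70 and Wls by -1.35. Against WT, the DHX36 knockout was itself lower in Col1a1 (-0.72, adjusted p = 1.75e-05) and Wls (-0.77, adjusted p = 3.90e-05). Dpysl2 was not called there (-0.25, adjusted p = 0.327).

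Other large changes differed less between the double and the DHX36 knockout. Pfkp differed by 0.09 (SE 0.09, adjusted p = 0.571) and Otx2 by 0.38 (SE 0.12, adjusted p = 0.0323). Dhx9 differed by 0.05 (SE 0.13, adjusted p = 0.839) and Dnmt3a by -0.03 (SE 0.08, adjusted p = 0.814). Ddx19b differed by -0.18 (SE 0.12, adjusted p = 0.319). Against WT, Dhx9, Dnmt3a and Ddx19b rose in the DHX36 knockout by 0.97, 1.51 and 1.54. Fam111a was higher in the double than in the DHX36 knockout by 0.55 (SE 0.15, adjusted p = 0.0130), and Zscan4d was lower by 0.60 (adjusted p = 0.000995).

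Of 121 genes of at least 20 CPM that changed at least 2-fold in the DHX36 knockout, 8 lay within 0.3 of WT on the log2 scale in the double knockout, and 4 of them are named by rule. Klhl13, an adaptor of cullin ubiquitin ligases, was at 153, 151 and 158 CPM in WT, 51.3, 57.8 and 57.8 CPM in the DHX36 knockout and 134, 125 and 121 CPM in the double knockout. It was higher in the double than in the DHX36 knockout by 1.19 (SE 0.09, adjusted p = 4.45e-09). It was still below WT (-0.28, adjusted p = 0.0141), a call lost without double knockout replicate 3 (-0.24, adjusted p = 0.0549). Mbnl2, a splicing regulator, was at 46.9, 43.8 and 51.1 CPM in WT, 19.7, 14.2 and 17.7 CPM in the DHX36 knockout and 37.5, 44.4 and 43.5 CPM in the double knockout (1.26 against the DHX36 knockout, adjusted p = 1.32e-06). Lef1, a transcription factor of the Wnt pathway, was at 23, 20.2 and 31.4 CPM in WT, 56.5, 55.6 and 66.7 CPM in the DHX36 knockout and 29, 30.9 and 29.3 CPM in the double knockout (-1.01 against the DHX36 knockout, adjusted p = 2.86e-06). Its difference from WT was 0.27 (adjusted p = 0.124), and 0.46 (adjusted p = 0.0122) without WT replicate 3. Rian, a noncoding RNA of the Dlk1-Dio3 region, was at 35.4, 26.3 and 23.7 CPM in WT, 11, 12.6 and 12.9 CPM in the DHX36 knockout and 19.8, 24.1 and 26.3 CPM in the double knockout (0.93 against the DHX36 knockout, adjusted p = 0.00163). In all 4 genes the double knockout libraries lay apart from those of the DHX36 knockout, and those of Mbnl2, Lef1 and Rian overlapped WT. Of the 7 such genes changed at least 2-fold in the FANCJ knockout, none was within that limit.

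**Figure D5:**
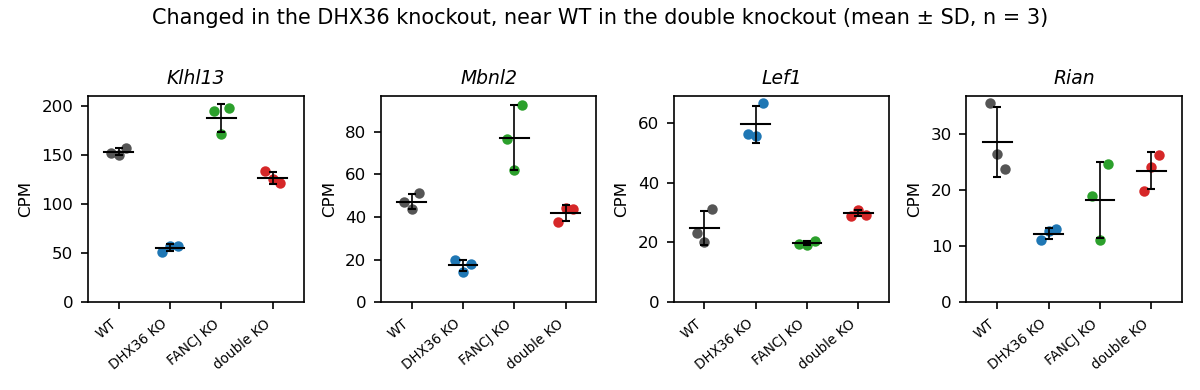
CPM of Klhl13, Mbnl2, Lef1 and Rian in each library of the 4 genotypes, with lines and bars for the mean ± SD (n = 3). The double knockout libraries lie near WT and apart from the DHX36 knockout, as for Klhl13 at 121 to 134 CPM against 51.3 to 57.8 CPM.

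G-quadruplex motifs were sought in the same RefSeq promoter windows, since both helicases act on that structure. The motif was 4 runs of at least 3 G with loops of 1 to 7 bases on either strand, and windows were found for 9988 of the 12765 genes tested. It was in 31.6% of windows of genes that rose, 30.5% of windows of genes that fell, 27% of windows of genes not called and 18.6% of all windows. Over all windows of tested genes the share was 28.4%, at a median GC content of 61.0%. The median GC content of the other sets was 61.7%, 61.3%, 60.7% and 52.7% in the same order. The part of GC content in these shares was not tested. In the windows of the actin and SRF target genes the share was 63.2%, at a median GC content of 66.3%. A match says only that the letters are there. Examples from genes with large changes are shown 5′ to 3′ on the gene's strand with the G runs in capitals, from raised genes (Otx2, Ak4 and Epha4) and lowered ones (Wls, Cnn1, Irs1 and Timp3).
Otx2, chr14:48662797-48662826, reverse strand: GGGGGGtGGGGGGGacggcGGGGGtGGGGG
Ak4, chr4:101419603-101419625, forward strand: GGGGGatGGGagtGGGGGtGGGG
Epha4, chr1:77515222-77515244, reverse strand: GGGGGcGGGacctcGGGGGtGGG
Wls, chr3:159839626-159839640, forward strand: GGGaGGGaGGGaGGG
Cnn1, chr9:22099029-22099054, forward strand: GGGGagaaGGGtggaaaaGGGGtGGG
Irs1, chr1:82291653-82291678, reverse strand: GGGGGtggagaGGGGcGGGcgtGGGG
Timp3, chr10:86300269-86300293, forward strand: GGGcgtaGGGcgaaGGGGccgtGGG
The shown matches occur in genes that rose and in genes that fell.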

How the data were processed

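Transcripts of 12 libraries, 3 for each of 4 genotypes, were measured in bulk by a method like CEL-Seq2, per the labels' protocols. The authors deposited raw counts for each gene in each library. The submitters' processing notes name BWA and, as builds, GRCm38 and hg38, with no roles. The use of molecular identifiers and the handling of strand and of reads with several alignments were not given in the sources used here. The 92 spike-in rows, with 4 to 30 counts per library, were dropped. Of 32285 gene identifiers, 32235 matched GENCODE M21, the source of coordinates.

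Counts were fitted with edgeR 4.0.16 in R 4.3.3: TMM scaling, the default filter by genotype (12765 genes left), 1 quasi-likelihood model over all 12 libraries with genotype as its only term, two-sided F tests and Benjamini-Hochberg adjustment over all genes tested, with a threshold of 0.05. SEs came from fold changes and F statistics, and CPM from TMM-normalised totals. The fit was tested on simulated counts. Promoter windows were RefSeq's for GRCm38.p6.

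The members and the 37 gene lists were chosen with earlier results of these data known, so lists are described by counts and medians without a test. Named genes were the targeted pair, the 12 largest rises and 12 largest falls among called genes of at least 20 CPM with no overlap (predicted genes passed over), up to 4 called members per list by size, up to 6 rises and 6 falls past all 3 other genotypes, and up to 4 genes per single knockout changed at least 2-fold there and within 0.3 of WT in the double knockout. A lack of overlap in the 12 largest rises and 12 largest falls thus follows from their rule. Alternatives were DESeq2 1.42.0, RLE scaling, no filter, genes of at least 20 CPM, a replicate block, thinning to equal depth, fits of only the compared genotypes and leaving out each library. Replicates varied beyond counting noise, with a chi-square of 4.11 to 12.3 for each degree of freedom. UTR motifs were not analysed here, and a few genes that the rule names are not reported here.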

Additional observations from a re-analysis of the deposited data

Results flagged for a closer look

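The difference going with FANCJ loss, its effect below, was taken with DHX36 present (FANCJ knockout against WT) and without it (double against DHX36 knockout). The difference between the 2 effects was tested as an interaction over all genes. It was called for 1122 of 12765 genes (8.79%), 348 positive and 774 negative. Of the 34 genes reported for the size or level of their change, 21 were called, 12 negative and 9 positive, and 39 of the 119 other named genes were called too. The named genes were chosen by their values in these same libraries. Neither count can therefore be compared with the share over all genes. The interaction for Acta2 was -2.38 (SE 0.14, adjusted p = 5.50e-10) on the log2 scale, from an effect of -1.85 without DHX36 and 0.53 with it. Other genes lower in the double knockout than the single effects add up to were Irs1 (-2.12), Timp3 (-1.83), Col1a1 (-1.79), Wls (-1.72), Dpysl2 (-1.41), Tagln (-1.39), Cnn1 (-1.21), Acta1 (-1.05) and Nnat (-1.04). Ddx3y (-1.13) and Lef1 (-0.69) had negative values as well. Each is in log2 units.

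Positive values were largest for Aass, at 2.89 (SE 0.25, adjusted p = 1.90e-07), from an effect of 2.41 without DHX36 and -0.48 with it. H19 gave 1.98 (SE 0.12, adjusted p = 9.72e-10), from an effect of 4.06 without DHX36 and 2.08 with it. Rhox5 gave 1.93, Rian 1.61, Dusp27 1.61, Acaa2 1.24, Calcoco2 1.14, Klhl13 0.90 and Epha4 0.51, the last with an adjusted p of 0.0476.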

How the results depend on the processing

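With only genes of at least 20 CPM, fewer genes were tested and the counts fell to 2292 for the double knockout against WT, 1376 against the DHX36 knockout, 2439 against the FANCJ knockout and 740 for the interaction. Leaving out 1 library at a time gave 3498 to 3940, 1789 to 2115, 3869 to 4206 and 880 to 1071 in the same order. DESeq2 gave 4042, 2253, 4346 and 1089, and equal depth 3617, 1738, 3677 and 842. The replicate numbers did not pair the samples (correlations of same-numbered deviations from -0.12 to 0.121 over 5701 genes), and a replicate block gave 4264, 2387, 4581 and 1039. Of 1996 values of the 158 named genes under alternatives, 1936 kept direction and call, 59 lost the call, 1 gained it and none changed sign, with 23 genes concerned. Of 481 medians of gene lists under alternatives, 116 moved by more than the SD of that list's median between double knockout libraries, and the median turned sign for 8 of 37 lists, 5 of them without counting the restriction to 20 CPM. Fits of only the compared genotypes were not applicable to the interaction. Groups of 3 libraries limit what any test can show, and depth limits genes of a few counts in WT, such as Spic, Sox17, Srgn and Taf7l.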
